A study of Mus musculus with 2 samples.

Results

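The transcripts described here encode the proteins of the cytosolic ribosome in CD4+ T cells from mouse spleen. They were chosen by name alone, as the gene symbols Rpl or Rps followed by a number (with a closing letter or digit where the symbol has one), Rplp0 to Rplp2 and Rpsa, without pseudogene symbols and without the Rps6k kinases. This gave 84 of the 24346 symbols in both libraries, 51 of the large subunit and 33 of the small subunit. RNA was sequenced from CD4+ T cells sorted from spleen at day 14 in animals labelled HFD-MI, and the title of the series speaks of cardiac remodelling following an infarction. One library came from HFD-MI animals treated with probucol, an antioxidant drug that also lowers cholesterol, and 1 library came from HFD-MI animals that were untreated. HFD-MI was thus shared by both groups. The labels give no age, no genotype and no number of animals behind a library, and the word HypoE in the column headers is left unexplained.

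The ribosome is built from a small subunit, which reads the messenger RNA, and a large subunit, which joins the amino acids. Most of the proteins are needed in equal number, and the messenger RNAs for these proteins are short, abundant and as a rule start with a C followed by a run of pyrimidines, the terminal oligopyrimidine tract through which mTOR and Larp1 set their translation. In T cells, ribosome production is known to increase when a resting cell is activated and begins to grow.

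Levels are given as the FPKM values that the authors deposited, in which fragments are scaled to the length of the transcript and to the mapped fragments of the library. A ratio is the FPKM with probucol divided by the FPKM in the untreated library. A log2 ratio is that of FPKM + 1, which understates differences of low genes. Genes with a mean FPKM of 1 or more over both libraries were compared, 10663 in all. Each group had a single library, so neither a replicate spread nor a test is available, and higher and lower describe these libraries, not the treatment. The low FPKM values fell on steps of 0.101 FPKM with probucol and 0.1 FPKM untreated for 1 fragment on 1 kb, which corresponds to 9.95e+06 and 1.00e+07 mapped fragments. Detection differed at this like depth, with 14289 symbols above 0 with probucol and 16876 untreated. What this difference does to shares and ratios was not tested. Unless named as across genes, intervals in brackets are 95% exact binomial intervals of a ratio from estimated fragments. They cover counting error only, PCR copies are included, and they are approximate because fragments were estimated with the median length of a gene's annotated transcripts.

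The T cell label was matched by T cell genes, with Cd4 at 334 FPKM with probucol and 284 FPKM untreated. The 6 T cell markers summed to 3930 and 3967 FPKM, with a median log2 ratio of -0.03. Markers of other cells differed between the libraries. For the counts of markers that follow, 47.3% of all genes compared were lower with probucol and 52.7% were higher. At least 1.2-fold higher were 22.2%. The 9 B cell markers summed to 63.1 FPKM with probucol and 22.6 FPKM untreated, and the defining B cell factor Pax5 was listed at 0 in both. The 10 erythroid markers found summed to 359 and 1179 FPKM, and the 9 of them that were compared were all lower with probucol. The 8 cell cycle genes summed to 43.1 and 74.0 FPKM, with 7 of 8 lower. Macrophage markers summed to 205 FPKM in both libraries, mostly Lyz2, and 6 of 9 were at least 1.2-fold higher with probucol, such as Csf1r with 3.75 and 1.85 FPKM. Neutrophil markers summed to 1060 and 945 FPKM, with 6 of 7 higher, among them Elane with 11.97 and 2.80 FPKM and Mpo with 10.9 and 4.23 FPKM. Natural killer markers summed to 56.9 and 51.9 FPKM, mostly Prf1, but their median log2 ratio was -0.54, and Gzma had 0.150 and 3.28 FPKM and Klrd1 1.22 and 6.22 FPKM. Dendritic markers summed to 2.23 and 2.11 FPKM. Xcr1, the only 1 of them compared, was lower with probucol, with 0.992 and 1.86 FPKM. Clec9a and Itgax, too low to be compared, had 0.147 and 0.263 FPKM with probucol and were listed at 0 untreated. The CD8 genes Cd8a and Cd8b1 summed to 16.1 and 19.9 FPKM. Nearly all of these cells make ribosomal protein transcripts. In bulk RNA, fewer cells of a type and less RNA per cell cannot be told apart, and the part these cells have in the values below was not tested.

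Ribosomal protein transcripts were among the most abundant in both libraries and were slightly lower with probucol. Of the 84 symbols, 82 reached a mean FPKM of 1, and Rpl10l and Rpl3l did not. The mean was 1000 FPKM or more for 54 members and 100 FPKM or more for 75, and 24 of the 50 highest rows of the whole table were members. Their FPKM summed to 16.9% of all FPKM with probucol and 18.8% untreated, and the ratio of the summed values was 0.881. Near-identical copies under other symbols, described below, are not counted with the members in these sums. The largest, Rps27rt, had 12336 FPKM with probucol and 15156 FPKM untreated, so the shares would be larger with copies. The share was 18.4% and 19.8% when small RNA symbols were left out of the sum. Of the 82 members compared, 75 were lower with probucol, where 47.3% of all genes compared were lower. The other 7 were higher, where 52.7% of all genes were. The median log2 ratio was -0.17 over the members, with an order-statistic interval across genes of -0.20 to -0.15, and 0.02 over all genes compared. An interval across genes, nominally 95%, treats members as independent draws, which genes of the same libraries are not. It describes the spread of members and says nothing about how far libraries of a group would differ.

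The difference was small and of like size across the set. The ratio lay between 0.8 and 1 for 71 members, and between 0.8 and 0.9 for 46. At least 1.2-fold lower were 11 members, beside 17.8% of all genes compared, and at least 1.2-fold higher were 3, beside 22.2%. The share of members past 1.2-fold was therefore not above that of all genes in either direction. These counts are on the FPKM + 1 scale, on which no member was 2-fold lower or higher, where 1.98% and 1.62% of all genes were. As plain ratios of a few FPKM, Rpl39l was lower and Rps4l higher by more than that, and both are given with the paralogs. Counting error alone left the ratio below 1 in 68 members and above 1 in 2, and its interval held 1 in the other 12.

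**Figure D1:**
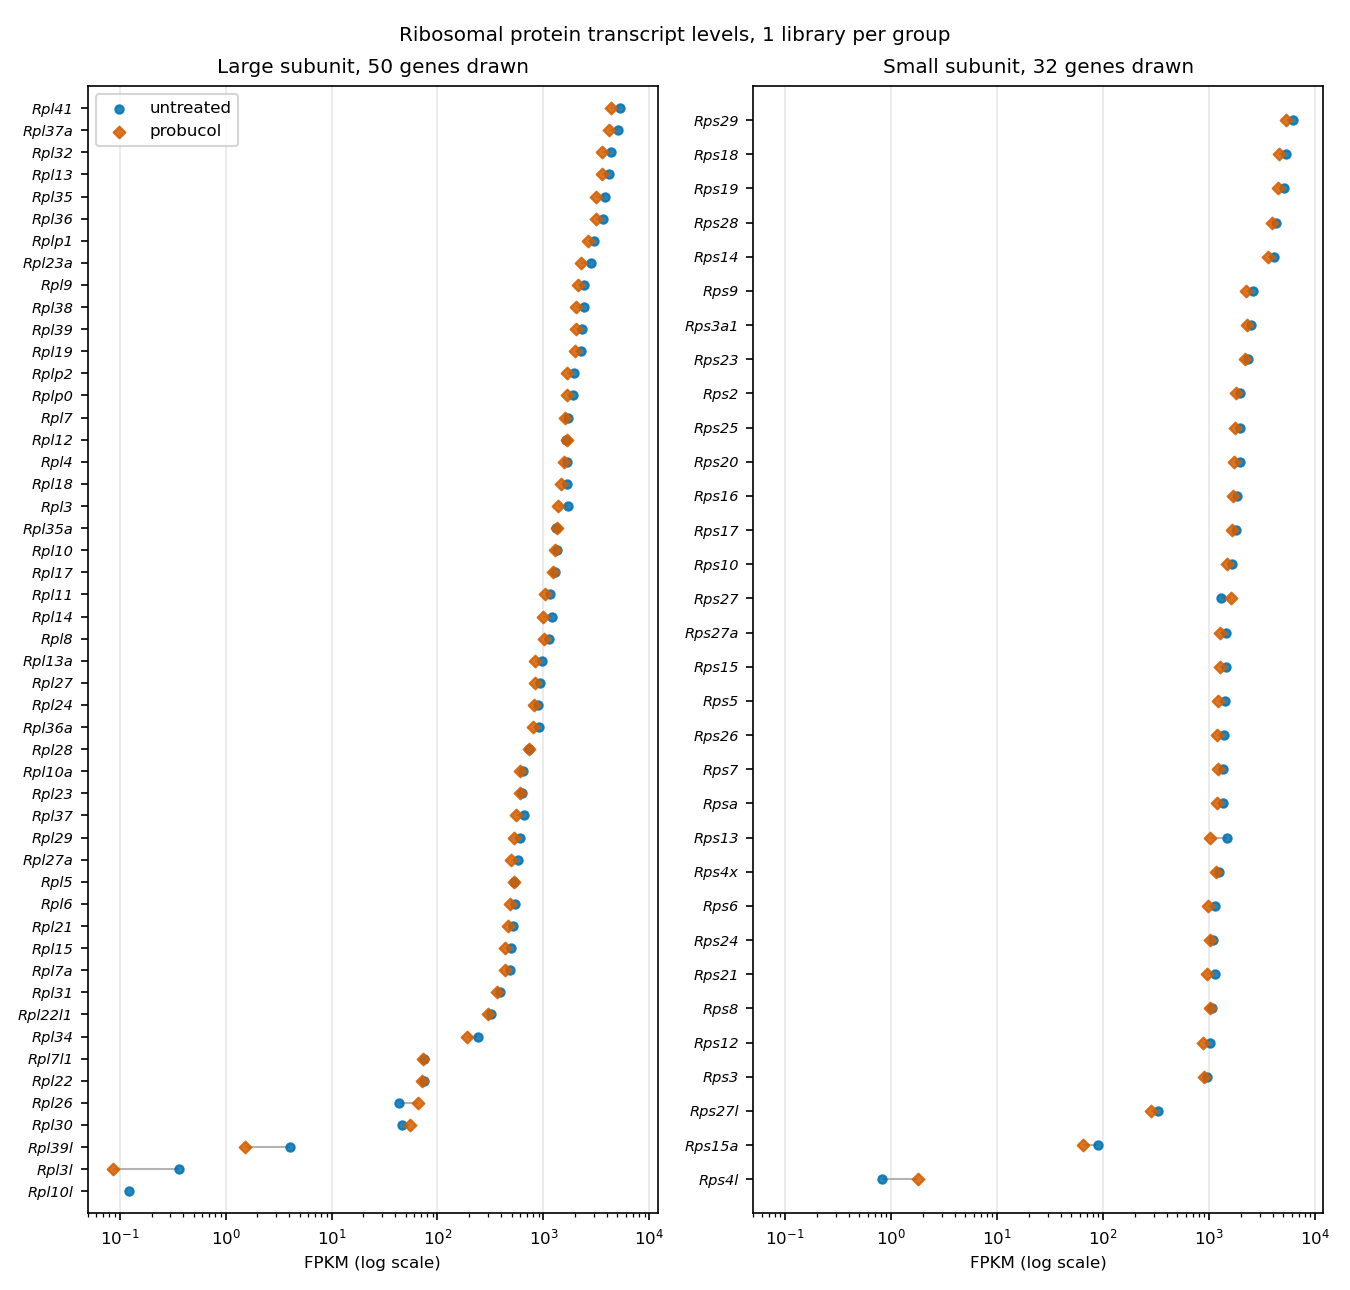
FPKM of ribosomal protein genes in the library from probucol-treated animals (orange diamonds) and in the untreated library (blue circles), on a log axis, ordered by mean level within the large (50 of 51 genes drawn) and small (32 of 33 genes drawn) subunit; a value of 0 (Rpl10l with probucol) is not drawn. Most diamonds lie just left of the circles, and the genes at 100 FPKM or less stand apart at the foot of each panel.

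The large and small subunits had nearly the same median. The 49 large subunit members compared had a median log2 ratio of -0.18 (interval across genes -0.20 to -0.15), with 44 lower. The 33 small subunit members had -0.17 (interval across genes -0.20 to -0.13), with 31 lower. At least 1.2-fold lower were 9 of the 49 large subunit members and 2 of the 33 small subunit members, beside 17.8% of all genes compared. The share of the large subunit was thus close to that of all genes. Among these 11, Rpl34 and Rps15a each had a log2 ratio of -0.10 once near-identical copies, described below, were added. Rpl39l rested on few fragments.

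The highest levels of single rows, copies of a gene not added, were found in both subunits. Rps29, a small zinc-binding protein in the head of the small subunit, had 5325 FPKM with probucol, 6156 FPKM untreated and a ratio of 0.865 (0.843 to 0.887). Rps18, also in the head, had 4572 and 5362 FPKM, a ratio of 0.853 (0.834 to 0.871). Rps19, the gene most often mutated in Diamond-Blackfan anaemia in humans, had 4469 and 5150.35 FPKM, a ratio of 0.868 (0.851 to 0.885). These highest members were lower with probucol by nearly the same factor. Rpl41, the shortest ribosomal protein, had 4317 and 5279.77 FPKM, a ratio of 0.818 (0.7997 to 0.836).

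The stalk of the large subunit, which recruits the translation factors, is formed by Rplp0 with the acidic proteins Rplp1 and Rplp2. Rplp0 had 1658 FPKM with probucol and 1905 FPKM untreated, Rplp1 had 2633 and 2975 FPKM, and Rplp2 had 1676 and 1944 FPKM. All 3 were lower, with ratios of 0.870, 0.885 and 0.862, so the stalk genes kept their proportions. Rplp2 made up 38.9% of the acidic pair with probucol and 39.5% untreated.

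Rpl5 and Rpl11 bind the 5S ribosomal RNA and, when free of the ribosome, inhibit Mdm2 and so stabilise p53. Rpl5 had 533 FPKM with probucol, 532 FPKM untreated and a ratio of 1.001 (0.954 to 1.05). Rpl11 had 1041 and 1158 FPKM, a ratio of 0.899 (0.862 to 0.938). Rpl5 was thus level between the libraries, and the interval of Rpl11 lay below 1. Rpl10, among the last proteins to join the large subunit, had 1284 and 1348 FPKM, a ratio of 0.952 (0.920 to 0.986). Rpl13a, known also for silencing inflammatory messenger RNAs once released from the ribosome, had 832 and 977 FPKM, a ratio of 0.852 (0.807 to 0.8996). Rpl38, known in mouse embryos for the translation of Hox messenger RNAs, had 2047 and 2414 FPKM, a ratio of 0.848 (0.809 to 0.889). These members of known special role lay on both sides of the median of the set.

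On the small subunit, Rps6, the protein phosphorylated by S6 kinase below mTOR, had 972 FPKM with probucol, 1148 FPKM untreated and a ratio of 0.847 (0.816 to 0.879). Rps3, at the entrance of the messenger RNA channel, had 899 and 957 FPKM, a ratio of 0.939 (0.908 to 0.971). Rpsa, which also occurs as a laminin receptor at the cell surface, had 1198 and 1346 FPKM, a ratio of 0.890 (0.864 to 0.917). Each was lower. Rps14, on the platform, had 3612 and 4126 FPKM, a ratio of 0.875. Rps27a, made as a fusion with ubiquitin, had 1267 and 1456 FPKM, a ratio of 0.870. Rps25, which some viral internal entry sites need, had 1765 and 1944 FPKM, a ratio of 0.908. Rps26, at the exit of the messenger RNA channel, had 1196 and 1378 FPKM, a ratio of 0.868, and Rps28, its neighbour there, had 3930.03 and 4299.85 FPKM, a ratio of 0.914. All 5 of these were lower with probucol, with ratios from 0.868 to 0.914.

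Among members of 10 FPKM or more, the lowest ratio was that of Rps13, a small subunit protein at the interface between the subunits, with 1019.95 FPKM with probucol, 1489 FPKM untreated and a ratio of 0.685 (0.666 to 0.704). It stood apart from the other abundant members, all of which had ratios of 0.8 or more at a mean of 1000 FPKM or more. Snord14a, the small nucleolar RNA annotated within Rps13, was listed at 0 in both libraries. Rpl3, which shapes the peptidyl transferase centre, had 1378 and 1704 FPKM, a ratio of 0.809 (0.786 to 0.832). Rpl23a, at the exit of the peptide tunnel, had 2275 and 2793 FPKM, a ratio of 0.814 (0.791 to 0.839), and Rpl14, on the outer face of the large subunit, had 987 and 1209.61 FPKM, a ratio of 0.816 (0.786 to 0.848). At the other end, Rpl35a, also mutated in Diamond-Blackfan anaemia in humans, had 1354 and 1308 FPKM, a ratio of 1.04 (0.991 to 1.08), and Rpl12, of the stalk base, had 1676 and 1628 FPKM, a ratio of 1.03 (0.9997 to 1.06). The remaining extreme ratios, low for Rps15a and Rpl34 and high for Rpl26, Rps27 and Rpl30, belonged to genes with near-identical copies elsewhere in the genome.

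A search of the annotated transcripts found copies with at least 95% identity over at least 95% of the coding sequence in the table for 15 members, 16 copy rows in all, and 6 members had a copy of 10 FPKM or more. Such copies compete for the same fragments, so the level of each row alone is uncertain and the sum of the rows is the firmer value. Rows of a pair can differ in annotated length, so these sums and shares hold for FPKM and not for fragments. Rps27 and Rps27rt have the same coding sequence of 255 bases, shown here because no fragment within it can tell them apart.
Rps27 and Rps27rt: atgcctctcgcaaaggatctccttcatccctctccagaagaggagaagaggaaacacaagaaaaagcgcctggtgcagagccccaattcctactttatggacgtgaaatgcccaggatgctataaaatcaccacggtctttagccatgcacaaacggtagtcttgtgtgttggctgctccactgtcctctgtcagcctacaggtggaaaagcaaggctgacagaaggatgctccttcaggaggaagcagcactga

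Rps27, on the minus strand at chr3:90212522-90213651 (GRCm38, GENCODE M21), has 4 exons, and Rps27rt, at chr9:114982366-114982739 on the minus strand, has 1. Rps27 had 1613 FPKM with probucol, 1298 FPKM untreated and a ratio of 1.24 (1.19 to 1.30), while Rps27rt had 12336 and 15156 FPKM, a ratio of 0.814. The gene and its copy thus moved in opposite directions, and most of the FPKM of the pair was listed under the copy, 88.4% with probucol and 92.1% untreated. Their sum, 13948 and 16453 FPKM, was the highest level of the set, with a ratio of 0.848.

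The pairs of Rpl30, Rpl26 and Rpl34 with their copies differ by 1 base or 2 bases in the coding sequence. Windows of 61 bases around 1 difference of each pair show how little separates the rows, with the differing base in capitals.
Rpl30: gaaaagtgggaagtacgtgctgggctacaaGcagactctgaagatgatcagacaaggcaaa
Gm12191: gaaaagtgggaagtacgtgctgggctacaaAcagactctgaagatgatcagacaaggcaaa
Rpl26: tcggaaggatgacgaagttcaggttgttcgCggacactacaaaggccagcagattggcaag
Gm15772: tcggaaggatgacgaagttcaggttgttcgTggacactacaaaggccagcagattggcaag
Rpl34: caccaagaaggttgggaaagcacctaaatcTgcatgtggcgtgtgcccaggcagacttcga
Rpl34-ps1: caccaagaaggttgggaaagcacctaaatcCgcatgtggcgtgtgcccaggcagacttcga

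Counted from 1 at the A of the start codon, and with the base of the named gene first, Rpl30 and Gm12191 differ by G96A, Rpl26 and Gm15772 by C177T and T288C, and Rpl34 and Rpl34-ps1 by T132C and C318G. Each copy is annotated as a processed pseudogene of 1 exon, Gm12191 at chr11:49678710-49679057, Gm15772 at chr5:3236431-3236868 and Rpl34-ps1 at chr6:71124610-71124963, while the named genes have 4 or 5 exons. Rpl30, a large subunit protein, had 54.7 FPKM with probucol and 46.7 FPKM untreated, and its copy had 1623 and 1923 FPKM. The ratio was 1.17 for the gene and 0.852 for the sum. Rpl26, which also promotes the translation of p53, had 65.2 and 43.5 FPKM, and its copy had 1399.93 and 1657 FPKM. The ratio was 1.499 (1.22 to 1.85) for the gene and 0.862 for the sum. The high ratio of both genes was thus that of a row with under 5% of the FPKM of its pair.

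Rpl34, a protein of the large subunit, had 189.58 FPKM with probucol, 242 FPKM untreated and a ratio of 0.782 (0.709 to 0.862), while its copy had 1961 and 2059 FPKM and the sum a ratio of 0.934. Rps15a, a small subunit protein, differs from Rps15a-ps6 by 5 bases. It had 65.2 and 90.4 FPKM, a ratio of 0.720 (0.616 to 0.844), and the copy had 69.01 and 43.8 FPKM. The sum of these rows was level, with a ratio of 0.9998. A second copy of Rps15a, Rps15a-ps4, had 0.820 and 10.2 FPKM, and with both copies the summed ratio was 0.935. Rpl21 and its copy BC004004 differ by 7 bases, and BC004004 had 18.9 and 24.5 FPKM beside 459.65 and 516 FPKM of Rpl21.

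With copies added to their members, an alternative chosen after the data were seen, 78 of 82 members were lower and 4 were higher, the median log2 ratio was -0.18, and 1 member was at least 1.2-fold higher. At a summed level of 100 FPKM or more, 75 of 78 members were lower, and the log2 ratios ranged from -0.55 for Rps13 to 0.05 for Rpl35a. Rpl26 and Rps27, at least 1.2-fold higher alone, were lower once their copies were added. Rps13 kept its place at the low end, with no such copy found.

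**Figure D2:**
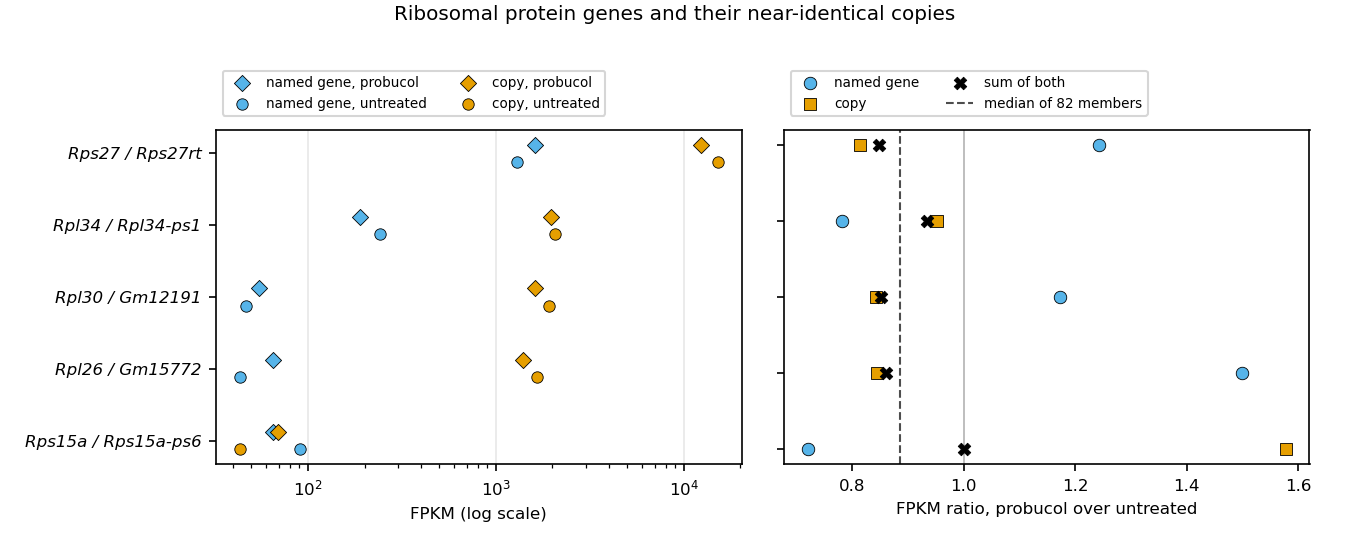
Left, FPKM (log axis) of 5 ribosomal protein genes (blue) and their near-identical copies (orange) with probucol (diamonds) and untreated (circles). Right, FPKM ratio of probucol over untreated for the gene (blue), the copy (orange) and the sum of the pair drawn (black cross), with the median of the 82 members dashed; the sums lie between 0.848 and 0.9998 while the genes alone spread from 0.720 to 1.499.

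Paralogs that can take the place of a ribosomal protein held similar shares in both libraries, apart from those of few fragments or with copies. Rpl22l1, the paralog of Rpl22, was the major form, with 300.13 FPKM with probucol and 320.03 FPKM untreated, beside 71.8 and 74.5 FPKM of Rpl22, whose loss in mice impairs the development of alpha-beta T cells. It made up 80.7% and 81.1% of the pair, and the coding sequences are 65.1% identical. Rpl7l1, a relative of Rpl7, had 72.9 and 74.0 FPKM, beside 1606 and 1712 FPKM of Rpl7, a share of 4.34% and 4.15%. Rpl36al, which lies outside the naming rule, had 896 and 899 FPKM beside 805 and 904 FPKM of Rpl36a, a share of 52.7% and 49.9%. The shares of these pairs differed by less than 3 percentage points between the libraries. For Rpl36al the difference was past counting error. Its share of estimated fragments was 62.4% with probucol (counting interval 61.3% to 63.5%) and 59.8% untreated (58.7% to 60.8%).

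Rps27l, a paralog of Rps27 induced by p53, had 283 FPKM with probucol, 332 FPKM untreated and a ratio of 0.853 (0.773 to 0.942). Beside Rps27 alone its share was 14.9% and 20.4%. With Rps27rt counted as Rps27 the share was 1.99% and 1.98%, so the apparent difference in share lay in the split between Rps27 and its copy.

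The paralogs known mainly from other tissues were near the limit of detection. Rpl39l, a form of Rpl39 known from the testis, had 1.51 FPKM with probucol and 4.01 FPKM untreated, about 7.03 and 18.8 fragments, a ratio of 0.377 (0.132 to 0.920). Its share of the Rpl39 pair was 0.0752% and 0.175%. Rps4l, a paralog of Rps4x, had 1.78 and 0.817 FPKM, a ratio of 2.18 whose interval of 0.791 to 8.74 held 1. Rpl3l, the form of Rpl3 in heart and skeletal muscle, had 0.0861 and 0.360 FPKM, about 0.705 and 2.97 fragments. Rpl10l, the testis form of Rpl10, was listed at 0 with probucol, where 3 fragments would be 0.371 FPKM, and had 0.122 FPKM untreated. At this depth no difference in Rpl3l, Rpl10l or Rps4l could be seen.

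The lower values of the ribosomal proteins were in part shared by other abundant genes. At a mean of 1000 FPKM or more, 51 of 54 members were lower, with a median log2 ratio of -0.19, and 51 of 67 other genes were lower (76.1%), with a median of -0.14. From 300 to 1000 FPKM, 19 of 20 members were lower with a median of -0.16, and 73.1% of 249 other genes were lower with a median of -0.08. Other genes of 10 to 100 FPKM had a median of 0.02 and those of 1 to 10 FPKM had 0.06. The median of other genes thus declined with level. With this trend removed, an alternative chosen after the data were seen, the members' median was -0.05, 58 members were lower and 24 higher. Centred on genes of 100 FPKM or more, whose median was -0.07, it was -0.10.

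**Figure D3:**
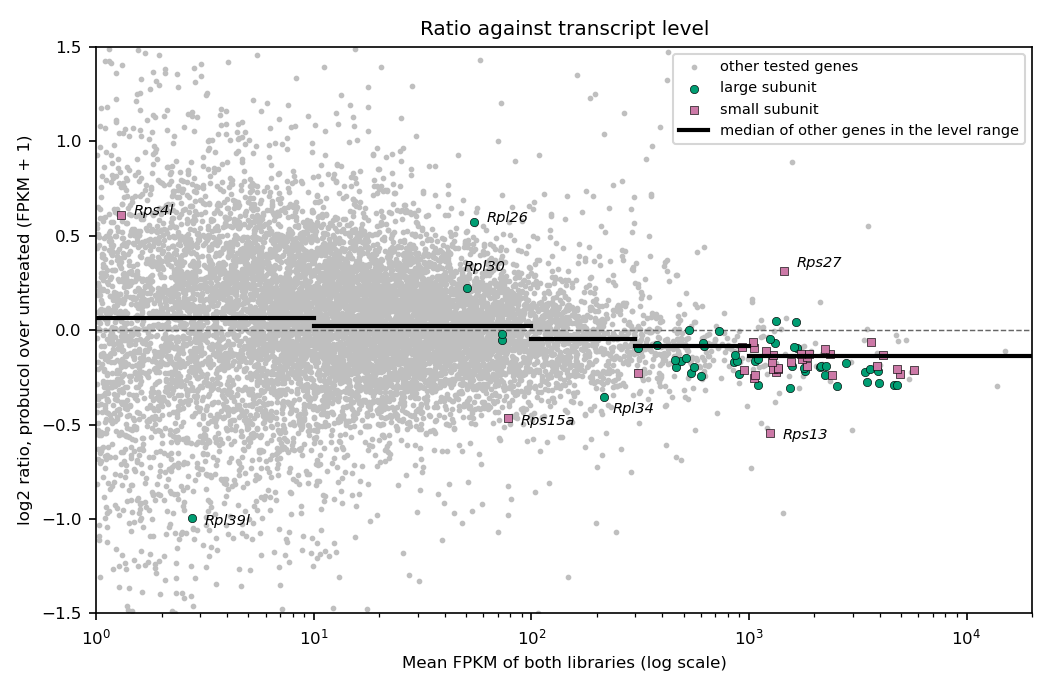
log2 ratio of probucol over untreated (FPKM + 1) against mean FPKM on a log axis for the large (green circles) and small (pink squares) subunit members and other compared genes (grey; those beyond 1.5 in either direction are not drawn). Black bars are medians of the other genes in 5 level ranges, from 0.06 at 1 to 10 FPKM to -0.14 at 1000 FPKM or more; the abundant members gather at or below the last of them.

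Length and GC content also varied with the ratio through the table, weakly, and within the set the length trend was weak too. The length used was the median over a gene's annotated transcripts, which is shorter than the coding sequence for 11 members, so the coding length is given too. Members under 600 bases had a median log2 ratio of -0.19 (36 genes), those of 600 to 1000 bases -0.17 (43 genes) and the 3 members of 1000 to 1500 bases -0.09. Other genes had -0.03 (834 genes), -0.0021 (3404 genes) and -0.0043 (1764 genes) in the same ranges and 0.13 at over 4000 bases (527 genes). Members were therefore lower than other genes of like length in each range, in a comparison not matched for level. The median FPKM with probucol was 1231 for the members and 14.7 for the other genes. Across the 82 members Spearman's rho of the log2 ratio with length was 0.14, with coding length 0.22 (81 members), with GC content -0.17 and with level -0.27, as descriptions across genes of the same libraries. Across all 10596 genes with a length, rho was 0.11 with length, -0.14 with GC content and -0.09 with level. The least-squares slope of the members was 0.0055 per doubling of length, and it turned to -0.0195 at a mean of 10 FPKM or more and to -0.0052 with a pseudocount of 5, so by least squares it had no settled direction. The Theil-Sen slope, which is less sensitive to single genes, was 0.039 at a mean of 1 FPKM or more, 0.033 at 10 and 0.035 at 100, a small positive slope at each.

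Split into 3 groups by coding length, the 75 members of 100 FPKM or more had median log2 ratios of -0.21 for the shortest (26 genes), -0.18 for the middle (24 genes) and -0.16 for the longest (25 genes). By GC content the medians were -0.13, -0.17 and -0.20 from the lowest to the highest group. By level they were -0.16, -0.16 and -0.20. The shortest, most GC-rich and most abundant groups had the lowest medians. The differences were small beside the full range of the set, from -0.55 to 0.31, whose ends are single genes. They were less small beside the quartiles of these 75 members, -0.22 and -0.12.

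Other families of short transcripts, of lower levels, were set beside the members. The median FPKM with probucol was 57.0 for mitochondrial ribosomal proteins and 227 for respiratory genes, beside 1231 for the members. Mitochondrial ribosomal proteins, which build the separate ribosome of that organelle, had a median log2 ratio of -0.02 over 77 genes, with 43 lower (55.8%, beside 47.3% of all genes). Nuclear genes of the respiratory chain and ATP synthase had a median of -0.11 over 82 genes, with 66 lower (80.5%), and the same median over the 37 of them at 300 FPKM or more. The members' median lay below both, in a comparison not matched for level. The 18 mitochondrial ribosomal protein genes at 100 FPKM or more had a median of -0.03, and the 2 at 300 FPKM or more had -0.12. Among genes under 600 bases, 40 respiratory genes had a median of -0.13, between that of the members and that of the other genes.

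**Figure D4:**
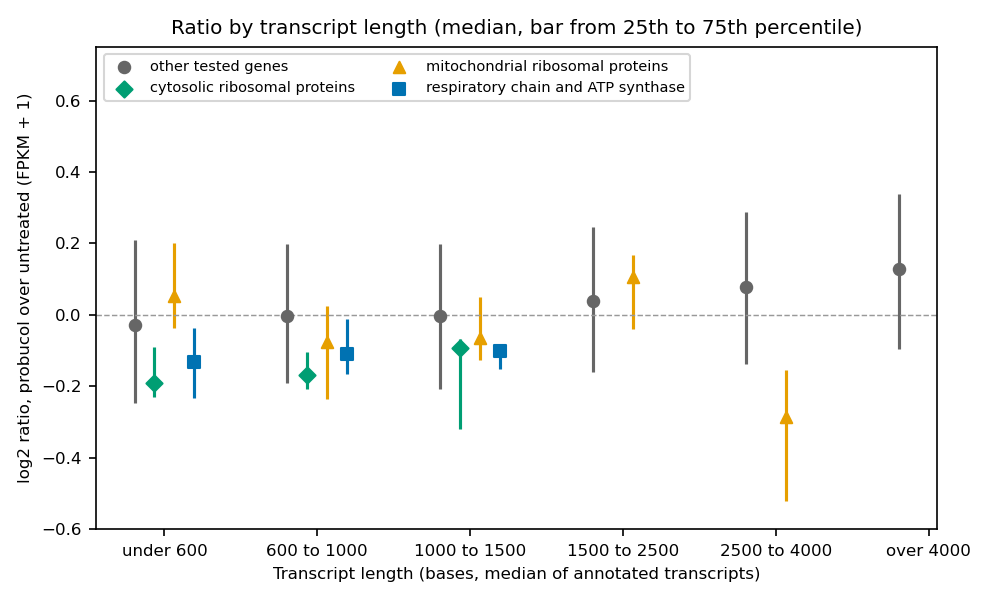
Median log2 ratio of probucol over untreated (FPKM + 1), with bars from the 25th to the 75th percentile of genes, by transcript length for the cytosolic ribosomal proteins (green), other compared genes (grey), mitochondrial ribosomal proteins (orange) and respiratory chain and ATP synthase genes (blue); ranges with fewer than 3 genes are not drawn. The members lie at -0.19, -0.17 and -0.09 in the first 3 ranges, and the other genes climb from -0.03 to 0.13.

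The promoters of the members were read for the pyrimidine run with which these messenger RNAs start. From RefSeq promoters (GRCm38.p6), 63 of the 84 genes had an entry. A C followed by at least 4 pyrimidines (C or T), on the gene's own strand and starting within 3 bases of the annotated start, stood in 25 of the 63 (39.7%), beside 13.5% of 27025 genes with an entry. It stood in 15.1% of genes compared that had an entry, in 13.2% of mitochondrial ribosomal protein genes and in 17.1% of respiratory chain genes. Of 9 genes listed below as other messenger RNAs with a terminal oligopyrimidine start, 2 had the run (22.2%). This reading therefore missed most of that list. Below are 60 bases around the annotated start, 40 before it and 20 from it on, of the 4 most abundant members with the run, in capitals, and of the 2 most abundant without it.
Rps18: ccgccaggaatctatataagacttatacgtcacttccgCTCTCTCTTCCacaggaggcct
Rpl35: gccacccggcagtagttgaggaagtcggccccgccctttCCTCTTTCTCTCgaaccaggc
Rps9: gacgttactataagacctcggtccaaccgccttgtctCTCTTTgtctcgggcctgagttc
Rps23: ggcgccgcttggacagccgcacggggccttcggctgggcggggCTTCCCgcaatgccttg
Rps19: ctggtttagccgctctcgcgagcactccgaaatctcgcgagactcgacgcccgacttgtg
Rpl41: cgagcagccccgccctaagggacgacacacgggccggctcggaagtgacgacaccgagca

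These windows lie at chr17:33955646-33955705 on the minus strand for Rps18, chr2:39005112-39005171 on the minus strand for Rpl35, chr7:3704001-3704060 on the plus strand for Rps9 and chr13:90923082-90923141 on the plus strand for Rps23. Rps19 was read at chr7:24884552-24884611 on the plus strand and Rpl41 at chr10:128549149-128549208 on the minus strand. The capitals begin at the first such C inside the window searched, and in Rpl35 and Rps9 further pyrimidines precede them. A match depends on the annotated start, and no match says only that these letters are not at this place in the window. Rpl35, a protein near the exit of the peptide tunnel, had 3145 FPKM with probucol and 3808 FPKM untreated. Rps9 had 2212 and 2607 FPKM, and Rps23, of the decoding site, had 2166 and 2317 FPKM. Members of 100 FPKM or more with the run had a median log2 ratio of -0.20 (24 genes), those without it -0.16 (32 genes) and those with no entry -0.19 (19 genes). The medians with and without the run both lay between the quartiles of all members of 100 FPKM or more, -0.22 and -0.12.

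Other genes of the pathway were read from lists of known members. Some ribosomal proteins have symbols outside the naming rule. Among them, Fau, the fusion that gives Rps30, had 1087 FPKM with probucol and 1241 FPKM untreated, and Gnb2l1, the scaffold protein on the head of the small subunit, had 589 and 657 FPKM. Both were lower, by log2 ratios of -0.19 and -0.16. The other messenger RNAs with a terminal oligopyrimidine start were lower in 11 of 15 (73.3%, beside 47.3% of all genes), with a median of -0.09. The lowest was Eef2, the factor that moves the ribosome along, with 459 and 591 FPKM, followed by the initiation factor subunit Eif3f with 124 and 152 FPKM and Btf3, of the nascent chain complex, with 361 and 429 FPKM. The highest was Hnrnpa1, a splicing regulator, with 57.5 and 52.9 FPKM.

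The machinery that makes and controls ribosomes was mixed. Ribosome assembly genes were higher in 19 of 33, a share close to the 52.7% of all genes, with a median log2 ratio of 0.08. Nop58, a core protein of box C/D small nucleolar particles, had 74.6 FPKM with probucol and 54.1 FPKM untreated, Tsr1, of small subunit maturation, had 25.1 and 19.4 FPKM, and Rpf2, which brings in the 5S particle, had 34.9 and 27.6 FPKM. Eif6, which keeps the subunits apart, was the lowest, with 121 and 142 FPKM. RNA polymerase I genes were lower in 9 of 14, beside 47.3% of all genes, with a median of -0.14. Taf1a, of the selectivity factor, had 9.37 and 14.7 FPKM, Polr1b, a core subunit, had 7.94 and 12.3 FPKM, and Znrd1, a small subunit, had 97.3 and 69.6 FPKM. This list was spread on both sides.

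Growth control genes were higher in 12 of 15, with a median log2 ratio of 0.15. The list holds activators and inhibitors of growth together, so this count gives no direction of growth. The inhibitors in it lay on both sides of 0. Max, the partner of Myc, had 24.8 FPKM with probucol and 12.5 FPKM untreated, and Myc itself had 74.7 and 67.3 FPKM. The kinase gene Mtor had 3.05 and 2.74 FPKM, and the interval of its ratio, 0.718 to 1.81, held 1. Larp1, which binds the pyrimidine tract, had 16.8 and 15.2 FPKM. Genes of ribosome rescue were higher in 7 of 8, with a median of 0.23, among them Abce1, which splits terminated ribosomes, with 47.1 and 37.2 FPKM, and Edf1 was lower, with 334 and 358 FPKM. Of all genes compared, 52.7% were higher. No gene of these lists was 2-fold different on the FPKM + 1 scale, but with 1.98% and 1.62% of all genes past that size, few would be found in lists this short.

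**Figure D5:**
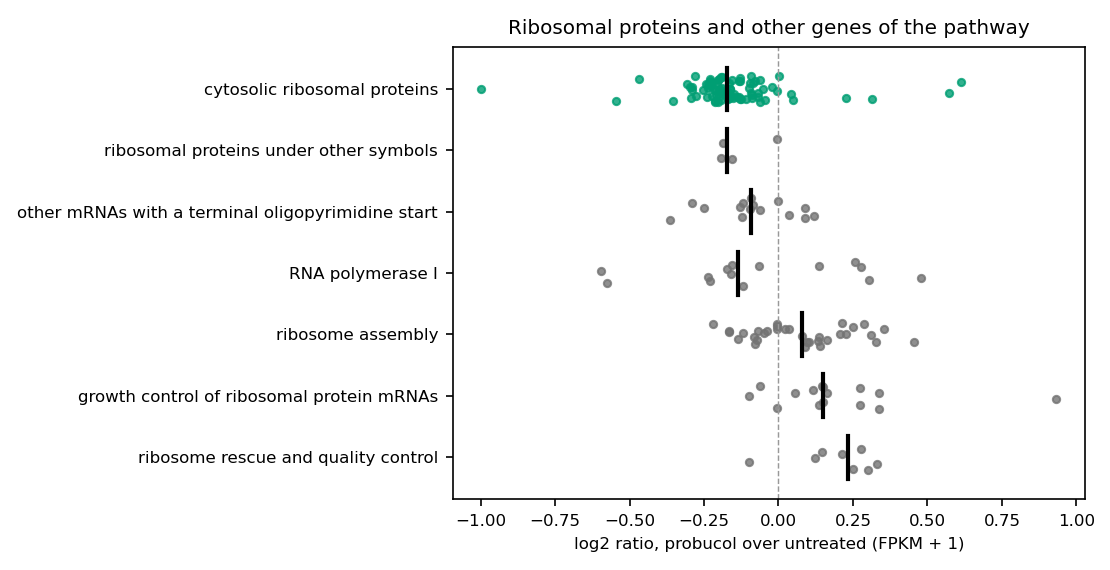
log2 ratio of probucol over untreated (FPKM + 1) for each compared gene of the cytosolic ribosomal proteins (green) and 6 lists of pathway genes (grey), with the median of each list as a black bar; points are scattered vertically only for legibility. The medians run from -0.17 for the ribosomal proteins to 0.23 for ribosome rescue and quality control.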

How the data were processed

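For each symbol the authors deposited an FPKM value in either library. The submitters' processing notes list TopHat2 2.1.1, Cuffdiff 2.2.1, Bowtie2 and mm10, with no role or order. Neither the annotation nor read filters are given in the sources used here. Per the labels' protocols, full-length cDNA was made with a SMART-Seq kit and libraries with a Nextera kit; no molecular identifiers and no strand-specific counting are named, so PCR copies stay in the values and overlapping genes cannot be told apart. No count model was fitted to FPKM.

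From these values, log2 ratios of FPKM + 1 were computed for genes with a mean FPKM of 1 or more. The step of 1 fragment was read from low values of genes with 1 transcript of 800 to 10000 bases, with 210 bases subtracted from the length; 77.1% of 437 and 77.5% of 939 low values lay within 0.1 of a whole number. Fragments summed with median transcript lengths came to 5.63e+06 and 5.76e+06, and with the longest transcripts to 1.37e+07 and 1.38e+07, so fragments per gene are uncertain by that range. Lengths and coding sequences came from GENCODE M21 (GRCm38), promoters from RefSeq, and copies from BLAST+ 2.17.0. Python 3.11.15, pandas 2.3.3 and SciPy 1.17.1 were used, and the calculation was tested on simulated data.

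The members and lists were chosen with earlier results of these data known. Named members were the 6 highest and 6 lowest ratios, the 4 highest and 4 lowest levels of 10 FPKM or more, the paralog pairs, members under 10 FPKM and a set chosen by role; in other lists, up to 3 genes with the largest ratios. Genes with copies, promoters shown and single genes of lists beyond these (Rps9, Rps23, Rpl35, Rps15a-ps4, BC004004, Mtor, Myc, Larp1, Edf1 and others) were added after their values were seen. Some genes are not reported here. Alternatives were other pseudocounts, filters, scalings, lengths and member choices.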

Additional observations from a re-analysis of the deposited data

How the results depend on the processing

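No paired analysis was possible because each group has 1 library, and for the same reason no library could be left out. Of 180 alternative values, 127 stayed within the spread or limit set for each, 51 moved and 2 reversed; the members' median log2 ratio was below 0 in 14 of 14 alternatives, from -0.19 to -0.05. Centred on genes of 100 FPKM or more, the median was -0.10 for all members, -0.10 for the large and -0.10 for the small subunit, with 15 members higher at all and 4 at least 1.2-fold lower. With the level trend of other genes removed (added after the data were seen), the medians of all, large and small subunit members were -0.046, -0.053 and -0.030, with 24 members higher at all, 4 at least 1.2-fold lower and 1 at least 2-fold lower. Centring on the median gene and removing the length and GC trend each gave 1 member at least 2-fold lower, and a pseudocount of 0.1 gave 1 lower and 1 higher. In the 3 members with 1 transcript, 3 were lower, 0 higher and 0 past 1.2-fold either way. Without members under 600 bases, 43 were lower and 3 higher, with 6 and 1 past 1.2-fold. With copies summed, or without members with a copy of 10 FPKM or more (both added), 4 were higher and 1 past 1.2-fold.

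The members' share with probucol and untreated was 9.24% and 10.3% of estimated fragments, 18.4% and 19.8% without small RNAs (added) and 12.4% and 13.6% over symbols of 600 bases or more without small RNAs. No share counted the near-identical copies with the members. The length slope of the members reversed, to -0.0195 at 10 FPKM or more and to -0.0052 with a pseudocount of 5, beside 0.039 by Theil-Sen; that of all genes, 0.025, was 0.039 by Theil-Sen, 0.059 with the longest transcript and 0.0083 at 10 FPKM or more. Of all genes, 211 were at least 2-fold lower and 173 higher. These became 357 and 313 with a pseudocount of 0.1, 64 and 55 with a pseudocount of 5, and 66 and 66 at 10 FPKM or more. At least 1.2-fold higher were 2370, or 1448 with a pseudocount of 5 and 1047 at 10 FPKM or more, and 1.2-fold lower were 1896, or 893 at 10 FPKM or more. The cause was not tested in each case, apart from counts over fewer genes.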

Other observations

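Small nucleolar RNAs are cut from introns of many ribosomal protein genes and guide the modification of ribosomal RNA. On the same strand, 25 members held 38 annotated small RNA rows inside their bounds, 33 of them small nucleolar RNAs, and 26 of the 38 rows were listed at 0 in both libraries. FPKM of such short rows rest on few fragments and on the authors' length model, so they are given as values only. Snora64, in Rps2, had 584 FPKM with probucol and 194 FPKM untreated, beside 1813 and 1977 FPKM of the host, and Snora70, in Rpl10, had 369 and 226 FPKM. Snord35a, in Rpl13a, had 1573 FPKM with probucol and was listed at 0 untreated. Snord15a, in Rps3, was listed at 0 with probucol and had 14.4 FPKM untreated. Snora65, in Rpl12, had 510 and 415 FPKM, Snora3, in Rpl27a, 84.2 and 209.53 FPKM, and Snora21, in Rpl23, 29.6 and 58.9 FPKM. Rpl12 was slightly higher with probucol, and the other hosts named here were lower. These rows were chosen after their values were seen.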
